A study of Triticum aestivum with 24 samples.

Results

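The comparison of elevated temperature alone with control comprised 6 of the 24 leaf RNA libraries of winter bread wheat (Triticum aestivum), all of the cultivar Alana: 3 from plants grown at elevated temperature (up to 31 °C) and 3 from untreated control plants, chosen by their labels. The series held 8 groups of 3 biological replicates. The other heated groups were CO2+temperature, temperature+drought and CO2+temperature+drought, and the other unheated groups were CO2, drought and CO2+drought, with elevated CO2 at 700 ppm and drought at a soil water content of 25 ± 5%. Every group was sampled at growth stage 61, the start of flowering, with RNA taken from leaves 3 and 4 on the main tiller. The sources used here do not say whether a replicate was 1 plant or a pool, or whether groups shared a growth chamber. The p-values therefore measure only the spread between libraries, pooled for each gene over all 8 groups unless fewer libraries were fitted.

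Leaves meet heat by raising molecular chaperones, many of them under heat stress transcription factors, which hold or refold proteins that lose their shape. Photosynthesis is sensitive to warmth because Rubisco activase, which keeps the carbon-fixing enzyme Rubisco active, is itself heat-labile. Bread wheat carries 3 related subgenomes, A, B and D, so most of its genes exist as near-identical copies on matching chromosomes. The identifiers in the deposited file are paired with no gene names, and 0 of the 105200 had an entry in the RefSeq table of wheat genes given for reference. Genes are therefore given by identifier, without a function; the digit and letter that follow TraesCS give the chromosome and its subgenome. The leaf identity of the libraries could likewise not be checked by marker genes, and levels of single copies are uncertain because the sources used here do not say how fragments were divided among copies.

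Levels are FPKM, fragment numbers corrected for transcript length and for the mapped total of the library. In the 6 libraries, between 61757 and 64155 genes lay above 0. Their median-ratio factors, which compare a library with the typical library by the median gene, were alike at 1.0498 to 1.0554, whereas those of the temperature+drought and CO2+drought libraries were 0.8718 to 0.8924. Comparisons with these last 2 groups are given on rescaled values, each library having been divided by its factor; this assumes that the typical gene did not change. On log2(FPKM + 1), the temperature libraries correlated with each other at 0.967 to 0.988 across the 45359 tested genes, the control libraries at 0.986 to 0.990, and temperature with control libraries at 0.944 to 0.960. Genes are not independent replicates. The temperature libraries differed more among themselves (typical SD per gene, as a root mean square over genes, 0.227 in log2 units, n = 3) than the control libraries did (0.164, n = 3), and 153 genes had an SD over 1 in temperature, against 18 in control. In 86 of these 153 genes temperature replicate 1 lay farthest from the median library, in 66 replicate 3 and in 1 replicate 2.

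The temperature libraries differed from the controls by many small rises, most frequent among abundant genes, and by falls that were more often large. Of 45359 genes tested, 7525 (16.6%) were called at an adjusted p under 0.05 (limma, Benjamini-Hochberg), 4099 higher (9.04%) and 3426 lower (7.55%). With no filter on low genes falls were the more numerous (3899 higher, 4006 lower), with only the 6 libraries fitted the numbers were close (3661 higher, 3614 lower), and library quality weights took the calls to 19020. Counting changes of 1 or more (log2), called larger below, 198 genes rose (0.437%) and 971 fell (2.14%), or 523 and 1571 with a pseudocount of 0.1. The 3 temperature libraries lay above the 3 control libraries in 3997 of the 4099 genes that rose, where 18.3% of all tested genes did so. They lay below the controls in 3334 of the 3426 genes that fell, where 17.5% of tested genes did. The same 6 libraries chose the called genes, so these counts describe them and are no separate test. In bulk leaf RNA, fewer cells of a type and less RNA per cell cannot be told apart.

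**Figure D1:**
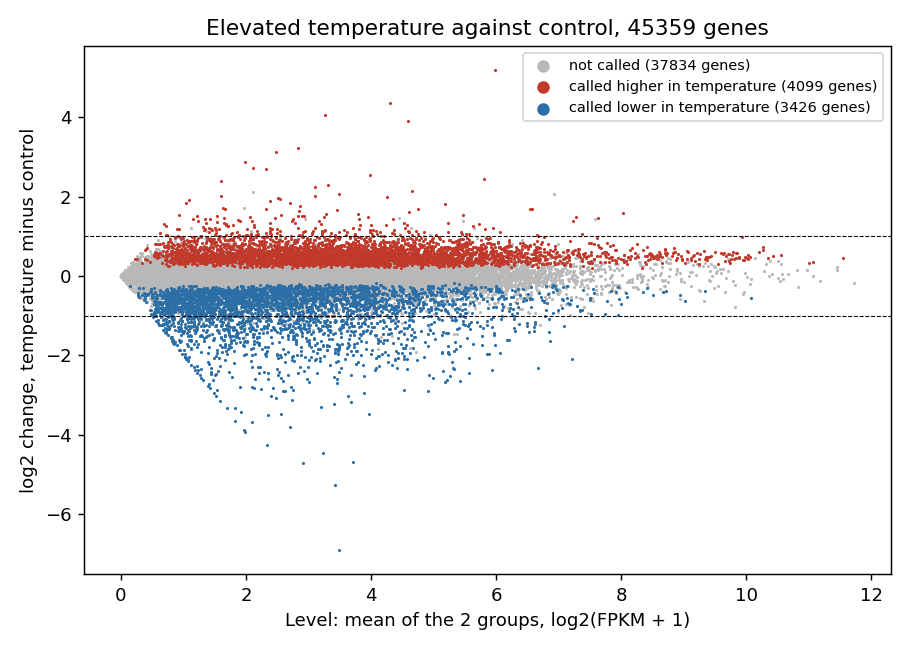
Each point is 1 of the 45359 tested genes, with its mean level on the log2(FPKM + 1) scale on the x axis and its log2 change, temperature minus control, on the y axis. Red points (4099 genes) were called higher and blue points (3426 genes) lower, and the dashed lines mark changes of 1, beyond which falls outnumber rises (971 and 198 genes).

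Rises were spread unevenly over levels, whereas the share of genes that fell stayed between 7.29% and 8.83% at every level. Among the 793 genes that averaged at least 100 FPKM over the 6 libraries, 278 (35.1%) rose and 67 (8.45%) fell. Of the 5291 genes between 20 and 100 FPKM, 19.9% rose and 8.83% fell. Among the 19478 genes between 1 and 5 FPKM, falls were the more frequent, at 7.29% against 5.37% for rises. The genes that rose made up 28.6%, 28.3% and 27.6% of all FPKM in the temperature libraries, against 20.6%, 20.5% and 19.6% in the control libraries. Those that fell held 4.79%, 4.88% and 5.05% of FPKM in temperature libraries and 9.46%, 9.25% and 9.42% in controls. These shares describe the chosen genes and are no separate test, and log2(FPKM + 1) understates changes of low genes.

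The 2 genes with the largest rises, among those whose groups did not overlap, both lay on chromosomes of group 4. TraesCS4D02G134900 stood at 669, 473 and 129 FPKM in the temperature libraries, against 7.38, 8.71 and 9.27 FPKM in the control libraries. All 3 temperature values lay far above the highest control, although they differed among themselves, with replicate 3 the lowest. The log2 change was 5.20 (SE 0.48, limma adjusted p = 2.4e-07). TraesCS4B02G140200 had the same order of libraries, at 150, 111 and 30.9 FPKM in temperature and 2.79, 2.66 and 3.37 FPKM in control (4.37 on the log2 scale with an SE of 0.58, limma adjusted p = 2.7e-05).

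Other rises were small in level but almost identical between libraries. The 2 genes with the largest moderated t, the change relative to its error, were TraesCS1B02G294300 and TraesCS2A02G277100. The first stood at 38.1, 36.3 and 36.5 FPKM in temperature libraries, against 6.51, 6.05 and 4.26 FPKM in controls (2.54 on the log2 scale with an SE of 0.14, limma adjusted p = 9.3e-11). TraesCS2A02G277100 had 9.04, 8.97 and 9.06 FPKM in temperature libraries, against 1.81, 1.85 and 1.43 FPKM in controls (1.90 on the log2 scale with an SE of 0.12, limma adjusted p = 9.2e-10). In both genes the temperature libraries were tightly grouped and far from every control, but the unheated CO2+drought libraries were as high, at 39.2, 43.9 and 42.1 FPKM in the first and 10.1, 9.36 and 10.2 FPKM in the second.

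In absolute level the largest rises were of transcripts already abundant in control leaves. TraesCS4A02G177500 had 3692, 3520 and 3302 FPKM in temperature libraries, against 2631, 2570 and 2488 FPKM in controls. Genes were ranked here among those with groups that did not overlap, and the log2 change was 0.45 (SE 0.08, limma adjusted p = 0.00083). This call was lost when only these 6 libraries were fitted (adjusted p = 0.081) and with no filter on low genes (adjusted p = 0.22; limma in both). TraesCS7D02G000300 had 1296, 1335 and 1501 FPKM in temperature libraries, against 720, 740 and 626 FPKM in controls (0.99 on the log2 scale with an SE of 0.10, limma adjusted p = 2.0e-06).

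Falls took some genes from high levels to almost none. TraesCS5D02G180900 stood at 0, 0.761 and 1.61 FPKM in temperature libraries, against 59.9, 60.1 and 68.7 FPKM in controls (-5.26 on the log2 scale with an SE of 0.26, limma adjusted p = 1.1e-11). Its drought libraries, at 27.8, 27.1 and 30.1 FPKM, also lay far above the temperature libraries, whereas the unheated CO2 libraries (2.01, 1.44 and 1.07 FPKM) and CO2+drought libraries (0.205, 0.0908 and 0.232 FPKM) were low too. By FPKM difference, the 2 largest falls among genes whose groups did not overlap were of TraesCS3B02G578200 and TraesCS7A02G034500. TraesCS3B02G578200 had 433, 412 and 407 FPKM in temperature libraries, against 660, 709 and 573 FPKM in controls (-0.63 on the log2 scale, limma adjusted p = 0.020), but the adjusted p was 0.061, 0.081 or 0.060 when control replicate 1, control replicate 2 or temperature replicate 2 was left out. TraesCS7A02G034500 had 52.1, 68.9 and 95.1 FPKM in temperature libraries, against 297, 309 and 292 FPKM in controls (-2.08 on the log2 scale with an SE of 0.57, limma adjusted p = 0.015), and lost its call without temperature replicate 1 (adjusted p = 0.065). The temperature libraries were close together in the first and spread more in the second. Of the unheated groups, TraesCS7A02G034500 was as low or lower in CO2 (62.5, 64.7 and 63.7 FPKM) and in CO2+drought (3.23, 9.53 and 6.39 FPKM).

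Part of the falls came from genes that were high in the control libraries and low in all 7 treated groups, heated or not. The largest fall of all, TraesCS3B02G010200, was of this kind. It stood at 0, 0.0178 and 0.0389 FPKM in temperature libraries, against 124, 119 and 122 FPKM in controls, and its highest value in the 18 other libraries was at most 0.0484 FPKM. In 61 genes, called control-only here, every control had at least 1 FPKM and every other library at most 0.1 times the lowest control. All 61 were among the 971 larger falls, which their definition made likely. Of 43 genes listed at 0 in all 3 temperature libraries with at least 1 FPKM in each control, 42 were control-only, and the 2 highest of the 43 were TraesCS3D02G010600 (15.5, 15.5 and 12.3 FPKM in controls) and TraesCS7A02G543200 (12.4, 10.6 and 11.9 FPKM in controls). No gene was listed at 0 in all controls with at least 1 FPKM in each temperature library.

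The pattern extended to genes that were not near 0. The 2 falls with the largest moderated t outside the control-only genes were TraesCS6A02G119700 and TraesCS3B02G000700. TraesCS6A02G119700 had 3.84, 3.52 and 3.70 FPKM in temperature libraries, against 50.9, 55.7 and 48.2 FPKM in controls (-3.49 on the log2 scale with an SE of 0.15, limma adjusted p = 8.3e-13), but its drought libraries were as low, at 4.10, 3.68 and 3.57 FPKM. TraesCS3B02G000700 had 9.79, 9.86 and 10.3 FPKM in temperature libraries, 41.3, 42.7 and 40.4 FPKM in controls, and 7.96, 6.99 and 8.75 FPKM under drought. In 214 of the 971 larger falls the 3 controls lay above all 21 other libraries. In 30 of the 198 larger rises the 3 controls lay below all 21 others. Over all tested genes the controls lay above the temperature libraries in 7960, and above all 21 others in 611 of these (1.35% of those tested). They lay below the temperature libraries in 8302, and below all 21 others in 357 of these (0.787%). The larger changes were chosen by temperature against control, which meets part of this condition, so the shares over all tested genes are no like background. In the 214 and 30 genes an effect of temperature and a difference of the control plants cannot be told apart.

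The temperature libraries were therefore also compared with the drought libraries, which leaves the controls out. These groups differ in drought as well as in temperature, and the effects of each cannot be told apart here. Here 8163 genes were called, 3528 higher (7.78%) and 4635 lower (10.2%), and 193 rose and 1517 fell by at least 1. The count of called genes was 5310 without drought replicate 1. Of the 198 larger rises against control, 158 (79.8%) were also called higher against drought, and of the 971 larger falls 794 (81.8%) were also called lower. None of the 198 was called lower, and 2 of the 971 were called higher. Both comparisons use the same 3 temperature libraries, so these counts are not independent of each other.

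TraesCS4D02G134900 again had the largest rise against drought, where it stood at 4.89, 6.06 and 6.56 FPKM (5.67 on the log2 scale, limma adjusted p = 1.4e-07). The second was TraesCS6A02G374400, with 5.27, 108 and 322 FPKM in temperature libraries, against 0.615, 0.748 and 0.438 FPKM under drought (5.24 on the log2 scale with an SE of 0.80, limma adjusted p = 0.00013). Temperature replicate 1 was low and replicate 3 high in this gene, the reverse of TraesCS4D02G134900, and the controls stood at 3.01, 3.29 and 2.73 FPKM. It was low in heated temperature+drought libraries (0.106, 0.209 and 0.101 FPKM) and in CO2+temperature+drought libraries (3.88, 3.31 and 1.28 FPKM). The largest falls against drought were of TraesCS4D02G360000 and TraesCS4A02G017000. TraesCS4D02G360000 had 0.566, 0.499 and 2.02 FPKM in temperature libraries, against 64.0, 48.6 and 51.7 FPKM under drought (-4.85 on the log2 scale, limma adjusted p = 4.3e-08), while its controls stood at 36.0, 52.9 and 37.9 FPKM. Of the unheated groups, CO2+drought was as low (0.676, 0.476 and 1.67 FPKM) and CO2 was low too (3.02, 5.45 and 4.17 FPKM). TraesCS4A02G017000 had 0.486, 0.327 and 0.535 FPKM in temperature libraries, against 62.3, 33.5 and 10.8 FPKM under drought (-4.35 on the log2 scale, limma adjusted p = 3.5e-06). Its drought libraries spread widely, whereas its controls were close together at 4.94, 4.89 and 5.25 FPKM. Against control its fall was smaller, at -2.06 on the log2 scale (limma adjusted p = 0.0049).

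Called genes lay on all 21 chromosomes. The A, B and D subgenomes had like shares of genes that rose (9.17%, 9.03% and 8.91%) and fell (7.38%, 7.77% and 7.51%). Larger falls made up between 1.71% of tested genes on chromosome 2A and 3.29% on chromosome 6B. Larger falls and larger rises each lay beside a gene of their own set more often than their share of tested genes. The next tested gene by identifier was also a larger fall for 112 of the 971 (11.5%), where larger falls were 2.14% of tested genes. For the 198 larger rises it was 6 (3.03%, where they were 0.437% of tested genes).

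Runs of 3 to 5 larger falls in a row occurred at 18 places and held 62 genes, with no such run of larger rises. Larger rises were fewer (198 genes against 971), so the lack of runs does not show that falls alone lay together. Of these 62 genes, 48 (77.4%) were also called lower against drought, near the 81.8% of all 971 larger falls. The run with the greatest falls, chosen after the values were seen, held 4 genes on chromosome 1A, from TraesCS1A02G289800 to TraesCS1A02G290200. All 4 were lower in each temperature library than in each control, with log2 changes between -2.66 and -4.69, and all 4 were called lower against drought. The unheated CO2+drought group was low as well, with means of 3.56, 3.47, 2.22 and 0.587 FPKM for the 4 genes in order, against 4.64, 1.70, 13.5 and 1.49 FPKM in temperature. TraesCS1A02G289900 had 0.450, 1.36 and 3.30 FPKM in temperature libraries, against 50.5, 66.7 and 70.9 FPKM in controls (limma adjusted p = 9.6e-08). Neighbouring genes can be duplicates of each other that share reads.

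Across the 8 groups, the genes with larger changes fell into 2 patterns of level. The 198 larger rises had a median of 11.6 FPKM in temperature and 3.21 FPKM in control. Drought, at 3.93 FPKM, lay near control, CO2 at 7.09 FPKM and CO2+drought at 8.10 FPKM lay between, and the other heated groups lay at 14.1 (CO2+temperature), 11.3 (temperature+drought) and 12.1 FPKM (CO2+temperature+drought). The 971 larger falls had a median of 2.45 FPKM in temperature and 9.63 FPKM in control. They stood at 10.4 FPKM under drought, but at 4.08 FPKM under CO2 and 3.15 FPKM under CO2+drought, which were unheated. Among the heated groups their medians were 2.99 (CO2+temperature), 2.05 (temperature+drought) and 3.28 FPKM (CO2+temperature+drought). The values in the temperature and control libraries chose these genes, so only the other 6 groups are new here, and the temperature+drought and CO2+drought values are as deposited.

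**Figure D2:**
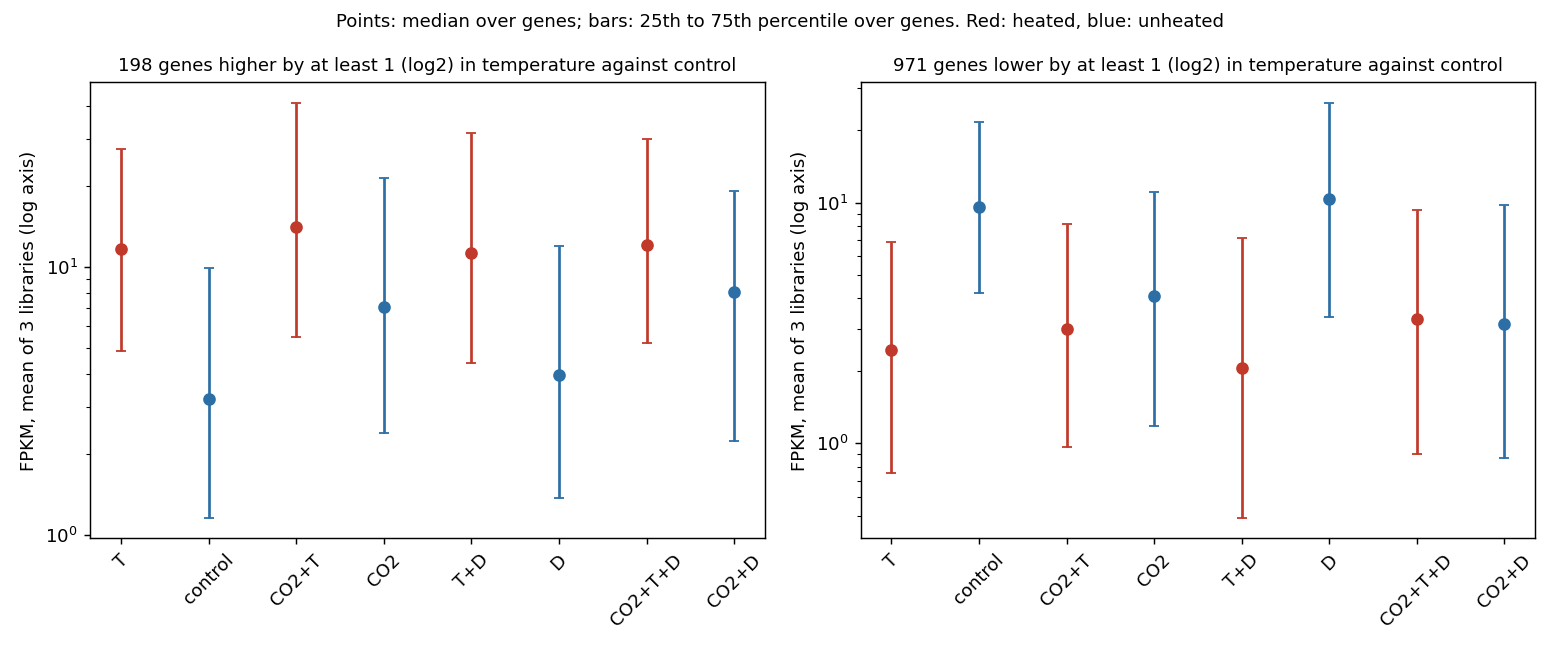
Median level in FPKM (points, log axis) and interquartile range over genes (bars) of the 198 larger rises (left) and 971 larger falls (right) in the 8 groups, with heated groups in red left of their unheated counterparts in blue (T, temperature; D, drought). The larger falls stood at 9.63 FPKM in control and 10.4 FPKM under drought and at 4.08 FPKM or less in every other group.

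The effect of the same temperature was next measured in 3 comparisons that share no library with the first: added to drought, to CO2, and to CO2+drought. Of the 3, the addition to drought had the highest correlation of log2 changes with temperature alone. Of the 198 larger rises, 145 (73.2%) also rose when temperature was added to drought and 9 (4.55%) fell, where 22.6% of all tested genes rose and 20.8% fell (rescaled). Of the 971 larger falls, 699 (72.0%) also fell and 40 (4.12%) rose. Over all called genes, 56.6% of the 4099 rises rose again and 60.0% of the 3426 falls fell again. As deposited, the median gene shifted by -0.18, and 13.1% of all tested genes rose and 37% fell. On those values 65.2% of larger rises rose and 76.5% of larger falls fell, but 34.5% of all 4099 rises rose. The rescaled log2 changes of the 2 comparisons correlated at a Pearson's r of 0.447 and a Spearman's rho of 0.396 across all 45359 genes, given as a description.

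Added to elevated CO2, temperature gave another picture. Of the 198 larger rises, 94 (47.5%) rose and 7 (3.54%) fell, against 9.73% and 13.6% of all tested genes. Of the 971 larger falls, 230 (23.7%) fell and 29 (2.99%) rose. The 4099 rises as a whole were divided evenly, with 741 (18.1%) higher and 715 (17.4%) lower, and a median log2 change of -0.03. Across all genes r was 0.223 and rho 0.141.

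Added to CO2+drought, temperature moved more of these rises down than up on rescaled values. Of the 4099 rises, 783 (19.1%) rose and 1624 (39.6%) fell, where 19.5% of all tested genes rose and 22.7% fell (rescaled). Of the 971 larger falls, 269 (27.7%) fell and 123 (12.7%) rose. For the 198 larger rises the counts were 72 higher (36.4%) and 46 lower (23.2%). As deposited, the median gene shifted by 0.18, and 36.8% of all tested genes rose and 14.2% fell. The order of the 4099 rises turned round, with 31.7% higher and 26.0% lower. Compared with all tested genes, they were less often higher and more often lower on both kinds of values. Of the larger falls, 22.3% were lower and 17.6% higher as deposited. Across all genes the rescaled r was 0.058 and rho 0.0096.

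**Figure D3:**
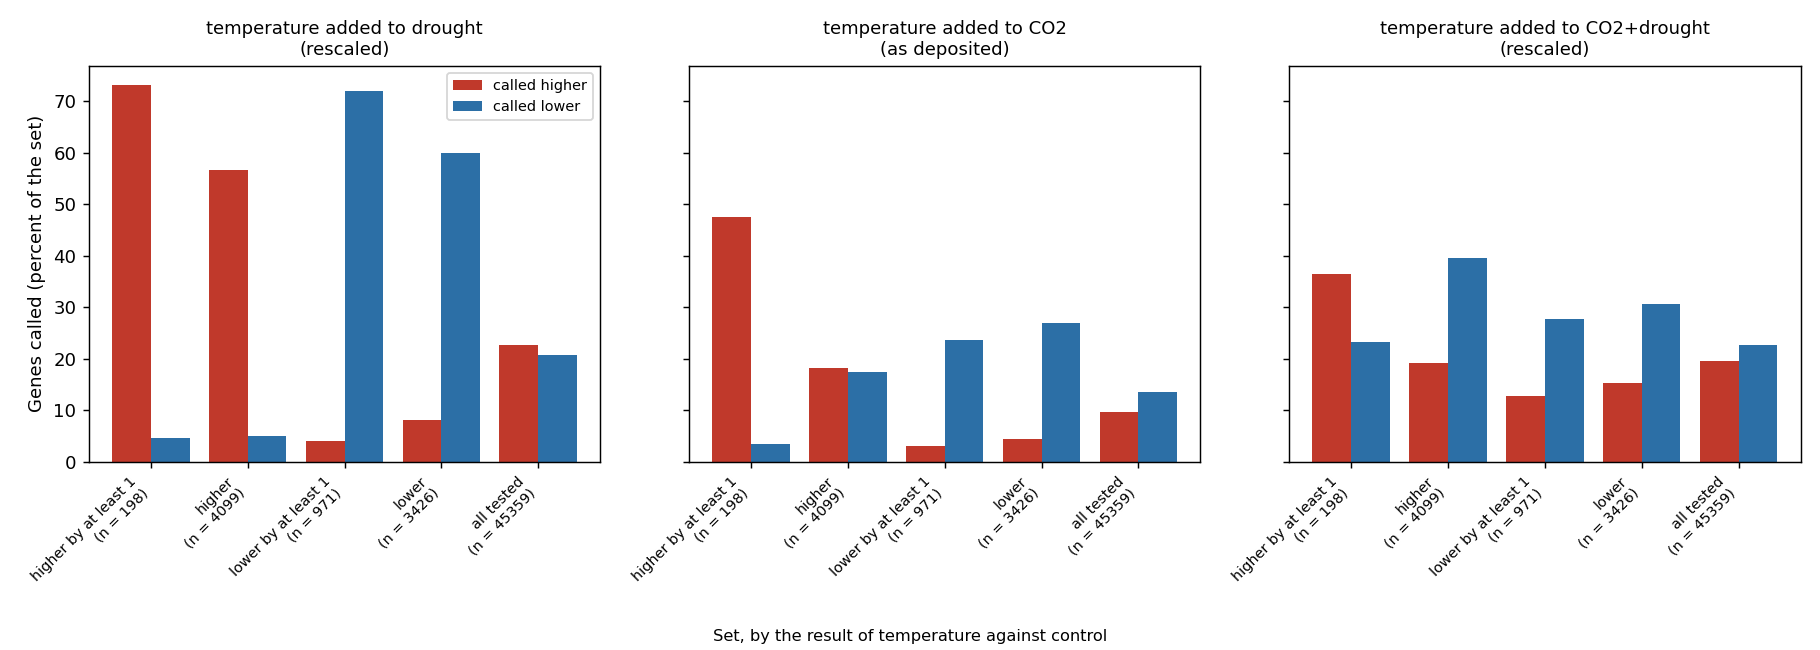
Percent of genes called higher (red bars) and lower (blue bars) when temperature was added to drought, to CO2 or to CO2+drought, for genes grouped by their result in temperature against control and for all 45359 tested genes. Added to drought (rescaled), 73.2% of larger rises rose and 72.0% of larger falls fell, where 22.6% of all tested genes rose and 20.8% fell. Added to CO2, the shares were 47.5% and 23.7%, where 9.73% of all tested genes rose and 13.6% fell.

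The differences between these effects were tested as interactions, positive where the log2 change was higher beside the other treatment than alone. The temperature effect under CO2 differed from that alone in 7888 genes (17.4%), 3061 positive and 4827 negative. Under drought it differed in 9418 genes (20.8%), 5192 positive and 4226 negative, on rescaled values, and in 13303 as deposited, 3117 positive and 10186 negative. For CO2+drought, a test added after the data were seen, it differed in 14575 genes (32.1%), 6536 positive and 8039 negative, on rescaled values (17837 as deposited, 12307 positive and 5530 negative). The control-only genes enter all 3 tests through the control libraries, and all 61 were called positive in the tests with CO2 and, rescaled, with drought. Their definition made this likely.

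The abundant transcript TraesCS4A02G177500 showed the difference under CO2. It stood at 4112, 3684 and 3869 FPKM in CO2+temperature, against 4707, 4970 and 5021 FPKM in CO2, so that temperature lowered it there (-0.33 on the log2 scale, limma adjusted p = 0.0070) and raised it alone (interaction -0.78 with an SE of 0.12, limma adjusted p = 0.00015). TraesCS5D02G180900, which fell with temperature alone, had 0.0973, 0.844 and 0.464 FPKM in CO2+temperature, against the low CO2 values given above. Temperature lowered it there too (-0.79 on the log2 scale, limma adjusted p = 0.033), and from such low values a fall as large as that alone was not possible. Its interaction was 4.47 (limma adjusted p = 7.3e-08), and what part of it comes from this limit was not tested. TraesCS7D02G000300 rose less under CO2, with 1325, 1484 and 1377 FPKM in CO2+temperature, against 1030, 1174 and 1113 FPKM in CO2 (interaction -0.65, limma adjusted p = 0.0048).

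Some genes with no called change under temperature alone changed with it beside another treatment. TraesCS5A02G257700 had 0.161, 0.324 and 0.671 FPKM in temperature libraries, against 0, 0.0329 and 0.0671 FPKM in controls, a difference that was not called (adjusted p = 0.42, limma). It reached 84.8, 160 and 123 FPKM in CO2+temperature, against 0.196, 0.0364 and 0.133 FPKM in CO2 (interaction 6.33, limma adjusted p = 5.5e-09). TraesCS5D02G227500 and TraesCS5A02G219300 had the most negative interactions with CO2. TraesCS5D02G227500 had 0.203, 1.59 and 1.68 FPKM in CO2+temperature, against 12.8, 30.2 and 19.6 FPKM in CO2, while temperature and control libraries held at most 3.07 and 1.24 FPKM (interaction -4.31, limma adjusted p = 8.5e-05). With temperature alone neither gene was called (limma adjusted p = 0.15 for TraesCS5D02G227500 and 0.59 for TraesCS5A02G219300).

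With drought, TraesCS6D02G358900 had the most negative interaction, given here like its libraries as deposited. It stood at 20.9, 280 and 783 FPKM in temperature libraries and at 34.2, 41.3 and 43.0 FPKM in controls, so that the groups overlapped and no change was called (adjusted p = 0.088, limma). In temperature+drought it had 1.45, 0.126 and 0.446 FPKM, against 16.7, 13.9 and 11.7 FPKM in drought (interaction -5.30 with an SE of 1.14, limma adjusted p = 0.0019). TraesCS7A02G034500 fell further with drought, to 2.65, 0.533 and 1.09 FPKM in temperature+drought, against 282, 302 and 292 FPKM in drought (interaction -4.93, limma adjusted p = 0.00016). TraesCS5D02G042300 was at 0.134, 0 and 0 FPKM in temperature libraries and listed at 0 in the 3 controls and the 3 drought libraries, but had 236, 64.3 and 102 FPKM in temperature+drought (interaction 6.81, limma adjusted p = 0.00090). It was also high without heat in CO2+drought, at 273, 13.3 and 128 FPKM.

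Of the 45359 tested genes, 192 were called higher and 283 lower in all 4 comparisons of a heated with an unheated group. Singly, temperature alone, added to CO2, to drought and to CO2+drought called 9.04%, 9.73%, 22.6% and 19.5% of tested genes higher. The shares called lower were 7.55%, 13.6%, 20.8% and 22.7%. The additions to drought and CO2+drought were taken on rescaled values, whereas the FPKM values given are as deposited. Ranked by their smallest change over the 4, TraesCS4D02G134900 and TraesCS4B02G140200 had the strongest rises throughout. TraesCS4D02G134900 stood at 2205, 2527 and 2374 FPKM in CO2+temperature, against 25.9, 26.6 and 26.3 FPKM in CO2. It had 161, 748 and 468 FPKM in temperature+drought, against 4.89, 6.06 and 6.56 FPKM in drought, and 2322, 1922 and 993 FPKM in CO2+temperature+drought, against 2.06, 2.30 and 2.33 FPKM in CO2+drought. The strongest falls were of TraesCS6A02G271300 and TraesCS3A02G355400.

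TraesCS6A02G271300 had 1.32, 1.44 and 1.49 FPKM in temperature libraries, against 14.8, 14.1 and 13.5 FPKM in controls (-2.65 on the log2 scale with an SE of 0.21, limma adjusted p = 3.6e-08). In the other backgrounds its heated libraries held 0.544 to 4.46 FPKM and its unheated libraries 5.68 to 28.7 FPKM. TraesCS3A02G355400 had 6.14, 6.43 and 8.35 FPKM in temperature libraries, against 38.0, 40.6 and 33.3 FPKM in controls (-2.27 on the log2 scale, limma adjusted p = 3.2e-09), and 0.857, 0.921 and 0.792 FPKM in CO2+temperature+drought, against 7.92, 4.61 and 6.21 FPKM in CO2+drought. Its temperature+drought libraries reached 11.0 FPKM, above the lowest CO2+drought library. In all, the 12 heated libraries lay above the 12 unheated ones in 70 genes (0.154% of those tested), 20 of them larger rises, and below them in 94 genes (0.207%), 28 of them larger falls.

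**Figure D4:**
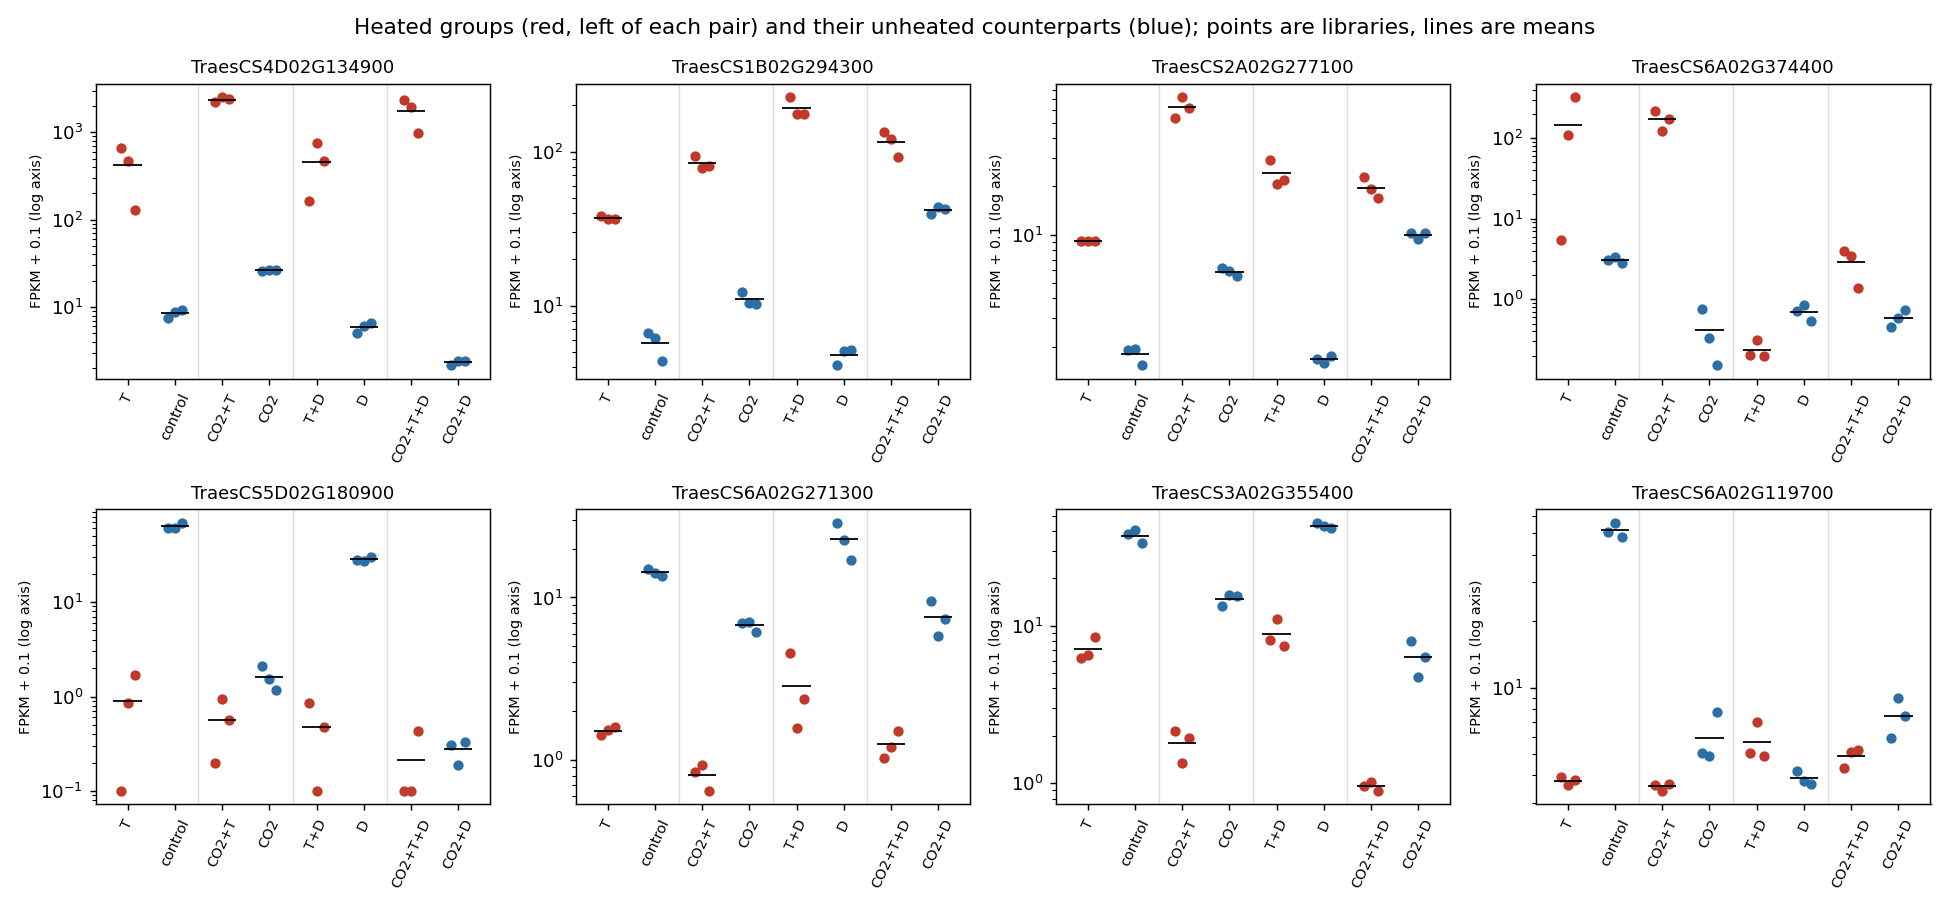
FPKM + 0.1 (log axis) of 8 genes in every library (points) with group means (lines), heated groups in red to the left of their unheated counterparts in blue (T, temperature; D, drought). TraesCS4D02G134900 was higher in heated libraries of each pair, and TraesCS6A02G119700 was high in the control libraries alone, at 48.2 to 55.7 FPKM. TraesCS6A02G374400 was high in CO2+temperature and in temperature replicates 2 and 3, but low in the heated groups with drought.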

How the data were processed

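The authors deposited FPKM values of 105200 genes for 24 libraries. The submitters' processing notes list Trim Galore 0.4.1 together with HISAT2, DESeq2 and Cuffdiff, but neither what each did nor the order. The sources used here give no genome build, annotation or scaling between libraries. Absolute depth is unknown, since no counts were used here. The value of 1 fragment, read as the most common ratio to control replicate 1 among values under 0.3 FPKM and within 0.4 on the log2 scale, was 1 to 1.117 in the 6 libraries.

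A gene was tested if 3 or more libraries reached 1 FPKM (45359 genes). Values of log2(FPKM + 1) were fitted by limma 3.58.1 (R 4.3.3, mean-variance trend) with 1 coefficient for each of the 8 groups. Tests were two-sided, adjusted by Benjamini and Hochberg over all genes, with calls at 0.05. In simulated data for temperature against control on 45359 genes, 44.8%, 85.1% and 98.5% of genes changed by 0.5, 1 and 2 on the log2 scale were recovered, with 6 false calls. The simulation drew normal noise with the same SD per gene in every group, whereas the real temperature and control libraries differed in spread (0.227 and 0.164). Few genes were changed, all with a control mean over 2 on the log2 scale, so these rates do not cover low genes.

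Named genes were at most 2 per direction by each rule: log2 change, FPKM difference and moderated t against control, change against drought, smallest change over the 4 comparisons, each interaction, and genes listed at 0. The first 2 rules and the drought rule asked for groups that did not overlap, and the moderated t left out control-only genes. The higher group had to average 5 FPKM for all but the FPKM difference and the genes listed at 0. Rules and comparisons were chosen with earlier results of these data known. Alternatives were another pseudocount, no filter, rescaling, library weights, fewer libraries, a replicate block and leaving out each library.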

Additional observations from a re-analysis of the deposited data

Results flagged for a closer look

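The effect of temperature differed between backgrounds by a test of the difference in 7888 genes for CO2, 9418 for drought (rescaled) and 14575 for CO2+drought (rescaled). The 2 highest and 2 lowest differences for CO2, among genes averaging 5 FPKM in at least 1 of the 4 groups, were those of TraesCS3B02G010200 (6.93), TraesCS5A02G257700 (6.33), TraesCS5D02G227500 (-4.31) and TraesCS5A02G219300 (-4.25), on the log2 scale. For drought, on values as deposited, they were TraesCS3B02G010200 (6.90), TraesCS5D02G042300 (6.81), TraesCS6D02G358900 (-5.30) and TraesCS7A02G034500 (-4.93). TraesCS3B02G010200 was present in the control libraries alone, so its difference is that of the control libraries from all others.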

How the results depend on the processing

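Temperature against control called 7299 genes with a pseudocount of 0.1, 7905 with no filter (3899 higher, 4006 lower), 7260 rescaled, 7275 with only the 6 libraries fitted, 8751 in a fit to 18 libraries of one scale, and 7442 without control-only genes, against 7525 as reported. Leaving out each of the 6 libraries gave 5232 to 7486. Changes of at least 1 numbered 2094 with the pseudocount of 0.1 (523 higher, 1571 lower), against 1169, and 1033 to 1376 without each library, with falls ahead of rises throughout. Library quality weights raised every count: 19020 for temperature against control, 21099 against drought, 21975 added to CO2, 34172 added to drought, 41042 added to CO2+drought, and 19591, 26705 and 32623 for the interactions with CO2, drought and CO2+drought. With its own 6 libraries alone fitted, temperature added to CO2 called 16384 genes, against 10601; the cause was not tested. Temperature against drought called 5310 to 7604 without each library, and temperature added to CO2 7446 to 8051, against 10601. As deposited and rescaled, 26.1% and 52.2% of the calls were higher for temperature added to drought (22710 and 19692 genes), and 72.2% and 46.2% for temperature added to CO2+drought (23142 and 19155). For the drought interaction the shares were 23.4% and 55.1%, and for the CO2+drought interaction 69.0% and 44.8%. Of 431 refits of 28 named results, 425 kept direction and call, 6 lost the call (values given above) and 0 reversed. Same-numbered temperature and control libraries correlated at 0.075, 0.010 and 0.142 in their deviations from the group means, so the numbers were not taken as pairs; with the replicate number as a block, 7630 genes were called, and the block moved none of the counts by over 1.5 times. Without counts, how far depth limits low genes is unknown.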
